A study of Mus musculus with 6 samples.

Results

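Gene expression 12 h after a single estradiol injection was compared with that after vehicle in whole mouse uterus. The comparison sets the array titled for 12 h of estradiol against the array titled for time 0, and takes in each gene that the array annotation names. Both pools came from C57Bl/6 females labelled 10 to 11 weeks old that had been ovariectomised and were killed 7 days later, after 1 subcutaneous injection of 0.05 µg of estradiol (E2) per mouse or of vehicle. These 2 arrays are part of 6 in the series, with 1 array of pooled uteri per group, and the others are estradiol at 1, 3, 6 and 24 h. The labels state 10 mice without saying whether that is per group, and give an arrival age of 10 weeks followed by 3 weeks of acclimation, which does not match the labelled age. The vehicle mice were killed 24 h after their injection and the estradiol mice 12 h after theirs, so the time since injection and the hormone cannot be told apart. Of 8251 named genes, 6025 were measured, meaning that the signal reached the floor of 142.8 intensity units on at least 1 of the 2 arrays, and 2226 lay below it on both. Signals are given below in these intensity units. Each group is 1 array, so no value has a replicate error and no difference was tested.

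Estradiol is the main ovarian estrogen. It acts through nuclear receptors, chiefly estrogen receptor alpha in the uterus, and in an ovariectomised animal a single dose is followed by fluid uptake, then by growth of the epithelium and preparation for secretion. A uterus is made of a luminal and glandular epithelium, a stroma of fibroblasts with their matrix, smooth muscle, vessels and resident immune cells, and an array of the whole organ reads the sum of their RNA. In such a sample, fewer cells of a type and less RNA per cell cannot be told apart.

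The 2 arrays were close in overall signal, while their spike-in controls differed. The share of probe sets that reached the floor was 60.43% on the vehicle array and 59.36% on the 12 h array, the actin 3' to 5' signal ratio was 1.25 and 1.20, and Spearman's rho between the arrays across probe sets was 0.933. The array labelled 3 h stood apart, with a rho of 0.857 against the 12 h array, and leaving it out of the scaling gave 402 genes higher and 455 lower. The spike-in control probe sets, left out of the rescaling, had a median log2 ratio of -1.03 between 12 h and vehicle. What that difference means for the gene ratios was not tested. Defining smooth muscle markers were bright on both arrays, with Myh11 at 9706 in vehicle and 7996 at 12 h, and so were the uterine stromal gene Hoxa11 (2662 in vehicle and 2615 at 12 h) and the epithelial keratin gene Krt8 (2193 in vehicle and 2091 at 12 h). Markers of fat and of pancreas were also present. The 24 adipocyte markers on the array summed to 42744 units in vehicle and 21862 at 12 h, and 10 of the 22 measured were at least 2-fold lower. The 21 markers of pancreas on the array summed to 8276 and 4410.3. Of these 21, 9 lay below the floor on both arrays, and 5 of the 12 measured were lower. The part of such tissue in the results below was not tested. Of 18 ovary and oviduct markers, 12 lay below the floor on both arrays.

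At a minimum of 2-fold, 404 genes were higher at 12 h (6.71% of those measured) and 455 lower (7.55%). Against the same vehicle array the shares were 6.91% and 9.1% at 6 h and 3.69% and 3.82% at 24 h. At 4-fold or more the 12 h counts were 43 and 50, and at 10-fold or more 5 and 2. The median log2 ratio over all measured genes was -0.04, with the middle of the distribution between -0.44 and 0.38 at its quartiles. In 53 of the higher genes the vehicle signal was below the floor, and in 74 of the lower genes the 12 h signal was, so their folds are lower bounds written as "at least". Lists of genes by function are described below by how many measured members passed 2-fold, against these shares of all genes, and by their median log2 ratio, against -0.04. The lists hold 316 of the 859 genes at 2-fold.

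**Figure D1:**
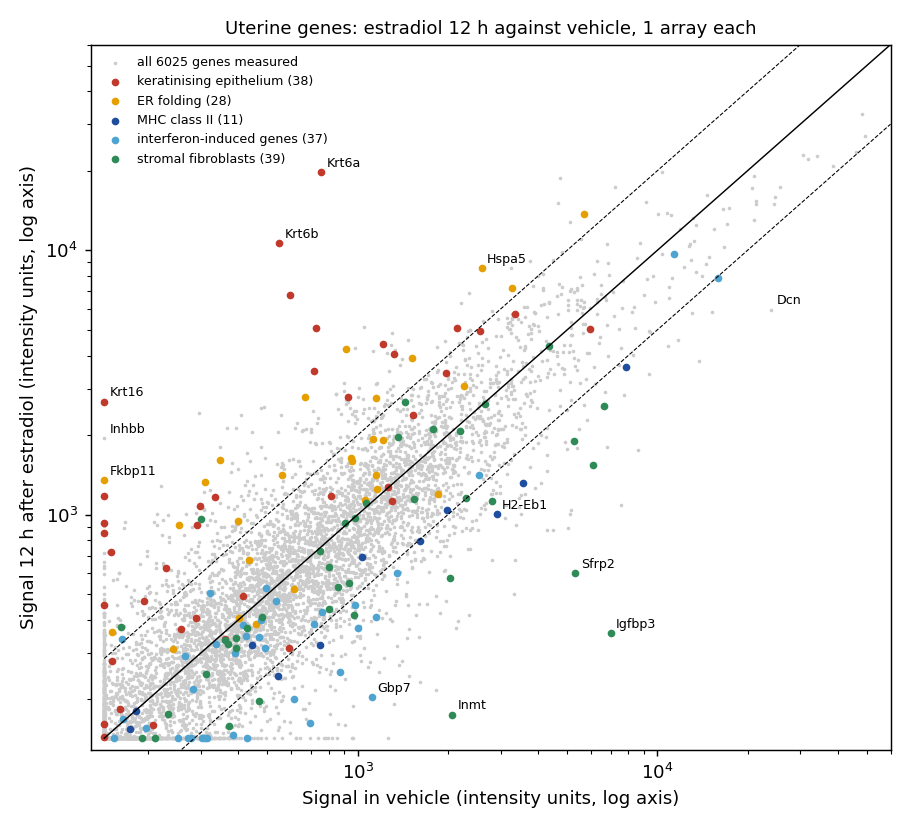
Signal of each of the 6025 measured genes in vehicle (horizontal, log axis) and 12 h after estradiol (vertical, log axis), in intensity units, with values below the floor of 142.8 drawn at the floor; the solid line marks equal signal and the dashed lines 2-fold. Keratinising epithelium genes (red) and endoplasmic reticulum folding genes (orange) lie mostly above the equal line, with Krt6a at 754 and 19742.5, while MHC class II, interferon-induced and stromal genes lie mostly below it, with Igfbp3 at 6996 and 356.

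Genes of keratinising, stratified epithelium held the highest folds of the comparison. Such epithelia carry keratins of the type 6, 16 and 17 group when activated, join their cells by desmosomes and build a cornified envelope from small proline-rich proteins. Of 38 measured genes 20 were at least 2-fold higher and 0 lower, with a median log2 ratio of 1.26. Krt6a was 754 in vehicle and 19742.5 at 12 h, 26.2-fold higher, and its second probe set gave a log2 ratio of 5.22. Krt6b went from 546 in vehicle to 10618, and Krt16, the keratin that pairs with type 6 keratins, was below the floor in vehicle and 2676 at 12 h. Krt16 was still below the floor at 6 h, on the array where Krt6a had already reached 16315. Keratins of other types were higher by less: Krt17 was 3.16-fold higher, Krt13, of the upper layers of mucosal epithelium, 3.00-fold higher, and Krt10 2.75-fold higher. Krt4, the usual partner of Krt13, had a log2 ratio of -0.20, and the basal-layer keratin genes Krt5 and Krt14 were below the floor on both arrays.

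The desmosome and envelope genes differed among themselves. Among the junction genes, the desmosomal cadherin gene Dsc2 was below the floor in vehicle and 1180.2 at 12 h, and desmoplakin (Dsp), which anchors keratin filaments, was 2.37-fold higher. The log2 ratios of Jup, Pkp3 and Ppl, other plaque and linker proteins, were 0.63, 0.52 and 0.01. Of the small proline-rich genes, Sprr2f was 11.5-fold higher, Sprr1a 4.92-fold higher, Sprr2b 3.66-fold higher and Sprr2i 3.08-fold higher, whereas Sprr1b had a log2 ratio of -0.25. Several Sprr2 probe sets are marked as able to read more than 1 family member, so the values of these near-identical genes are not independent of each other. The peptidylarginine deiminase genes measured, whose enzymes convert arginine to citrulline in keratins, were each higher: Padi1 3.62-fold higher, Padi2 3.47-fold higher and Padi4 4.80-fold higher. Other higher genes were Sfn, an epithelial 14-3-3 protein (724 in vehicle and 5090.3 at 12 h), the serpin genes Serpinb2 (at least 5.95-fold higher) and Serpinb5 (at least 3.18-fold higher), and Fabp5, an epidermal fatty acid binding protein (at least 6.51-fold higher). Of the terminal differentiation genes, Lor (log2 ratio 0.25) was within 2-fold of vehicle, Cdsn was at -0.92, and Ivl was below the floor. Flg was below the floor in vehicle, at 0.18 or higher. Against the same vehicle array, the list had a median log2 ratio of 0.58 at 6 h and 2.05 at 24 h, and Krt6b read 2997, 10618 and 25864.5 units at 6, 12 and 24 h.

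Markers of simple columnar epithelium, the type that lines the resting uterus, were divided. Of 17 measured, 2 were higher and 5 lower, with a median of -0.28. The simple-epithelium keratins split: Krt7 was 559.9 in vehicle and 1568 at 12 h, 2.80-fold higher, Krt19 had a log2 ratio of 0.36, Krt8 -0.07 and its partner Krt18 -0.98. The claudin gene Cldn7 was 2.02-fold higher, while Tjp1, which encodes the tight junction scaffold ZO-1, was 2.72-fold lower. Foxa2, a transcription factor of the uterine glands, went from 388 in vehicle to below the floor and was at least 2.72-fold lower. Msx1, a homeobox gene of the uterine epithelium, was 2.55-fold lower.

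**Figure D2:**
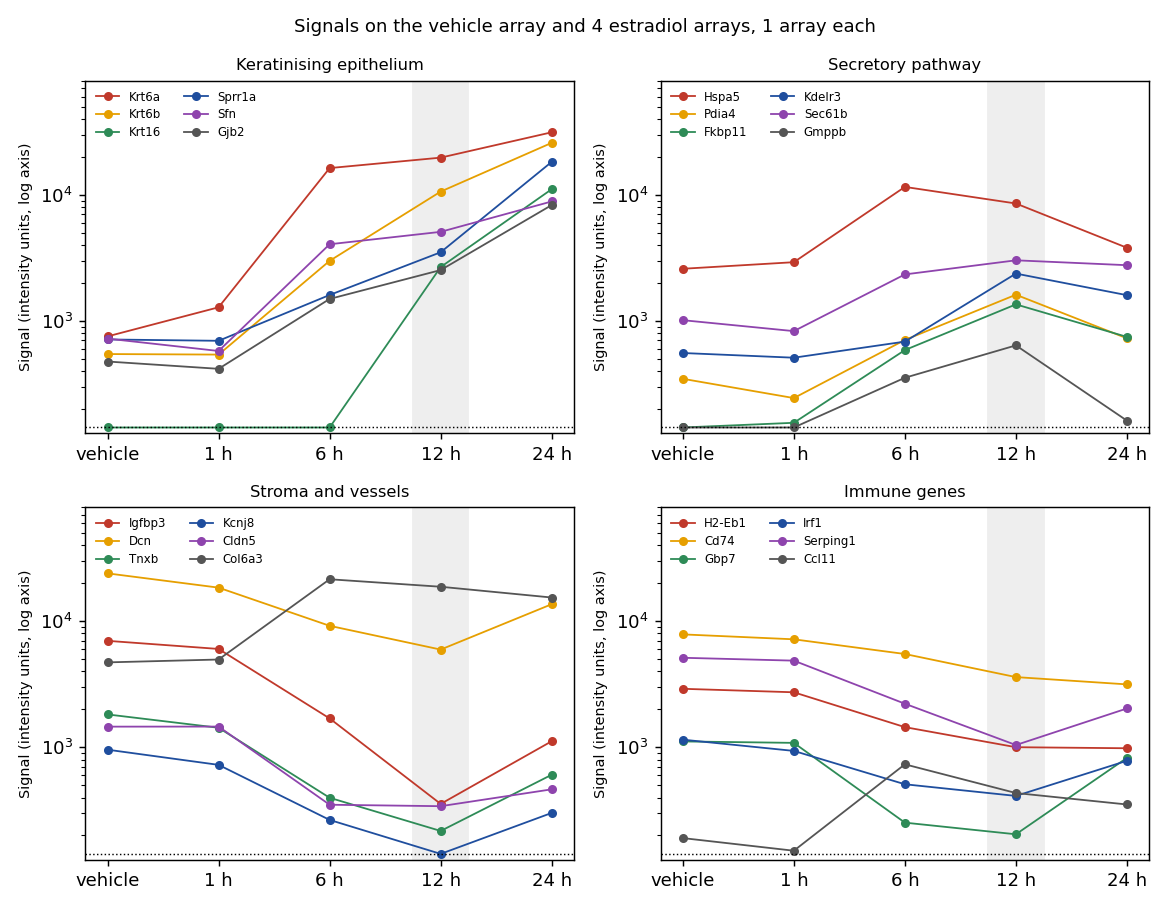
Signal of 6 genes in each of 4 groups (keratinising epithelium, secretory pathway, stroma and vessels, immune genes) on the vehicle array and the 1, 6, 12 and 24 h estradiol arrays, on a log axis in intensity units, 1 array per point; the 12 h array is shaded, the dotted line is the floor of 142.8, and the array labelled 3 h is not drawn. Krt16 is at the floor up to 6 h and at 2676 at 12 h, Pdia4 is highest at 12 h with 1615, and Igfbp3 and Kcnj8 are lowest at 12 h.

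Along the secretory pathway, genes of the early steps lay above vehicle and those of the last step near it. Proteins bound for secretion enter the endoplasmic reticulum (ER) through the Sec61 channel, lose their signal peptide, are folded with the help of chaperones and disulfide isomerases, receive sugar chains, travel in coated vesicles through the Golgi apparatus, and leave by exocytosis. Along that route the median log2 ratio was 0.55 for ER entry (4 of 18 at least 2-fold higher), 0.97 for ER folding (14 of 28), 0.33 for N-glycosylation (4 of 33) and 0.51 for vesicle coats and Golgi transport (8 of 47). No measured member of these 4 lists was 2-fold lower. The 23 measured genes of exocytosis and secretory granules had a median of -0.09, with 0 higher and 2 lower.

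At the entry step, Sec61b, a subunit of the channel, was 1014 in vehicle and 3026 at 12 h, 2.98-fold higher. The translocon-associated genes Ssr2 and Ssr1 were 2.74-fold higher and 2.64-fold higher, and Sec11a, of the signal peptidase, was 2.12-fold higher. Sec61a1, the pore itself, had a log2 ratio of 0.81 by its brightest probe set and 1.51 by its other. The signal recognition particle genes Srp9, Srp14 and Srp68, which bring ribosomes to the channel, lay at 0.17, 0.19 and 0.36.

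Among the folding genes, the prolyl isomerase gene Fkbp11 was furthest from vehicle, followed by the disulfide isomerase genes Pdia4 and Pdia3. Fkbp11 was below the floor in vehicle and 1353 at 12 h, at least 9.48-fold higher. Pdia4 went from 347.5 in vehicle to 1615 and Pdia3, the isomerase that works with calnexin on glycoproteins, from 917 in vehicle to 4244, while Pdia6 was 2.39-fold higher and Pdia5 2.37-fold higher. P4hb, the most general disulfide isomerase, differed from these: its brightest probe set gave a log2 ratio of -0.63 and its other 0.16. The ER chaperone BiP (Hspa5) was 2593 in vehicle and 8543 at 12 h, 3.29-fold higher, its partner genes Dnajb11 and Dnajc3 were 3.60-fold higher and 2.54-fold higher, and Hsp90b1, the ER form of HSP90, was 2.20-fold higher. The stress-responsive secreted proteins Manf and Creld2 were 4.17-fold higher and 4.29-fold higher. Herpud1, of ER-associated degradation, had a log2 ratio of 0.11, and Canx had -0.22 by its brightest probe set and 1.05 by its other. Against the shared vehicle array, Pdia4 read 706 units at 6 h, 1615 at 12 h and 728 at 24 h, and the median of the ER folding list was 0.65, 0.97 and 0.63.

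Promoters of ER chaperones are known to carry the ER stress response element, bound by ATF6 and XBP1 with NF-Y. The letters CCAAT and CCACG with 9 bases between them were searched on both strands in RefSeq promoters of the build GRCm38.p6, from 250 bases before to 50 after each start. Of 26 ER folding genes on the array with a promoter in the table, 7 held a match, against 0.137% of all genes in the table and 0.186% of the measured genes. The shorter CCACG, which the longer motif contains, was in 23 of the 26 and in 52.8% of the measured genes. Of 13 folding genes that were 2-fold higher and had a promoter, 5 held the long motif, and these are shown with Canx, which held it and was within 2-fold by its brightest probe set. Each stretch runs 5′ to 3′ on the strand of its gene, with the match in capitals, written as its reverse complement where it lies on the other strand.

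Hspa5, chr2:34772005-34772063, + strand: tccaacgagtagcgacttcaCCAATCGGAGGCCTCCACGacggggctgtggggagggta
Hsp90b1, first match, chr10:86705618-86705676, − strand: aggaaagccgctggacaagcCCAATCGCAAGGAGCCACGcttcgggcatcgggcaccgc
Hsp90b1, second match, chr10:86705513-86705571, − strand: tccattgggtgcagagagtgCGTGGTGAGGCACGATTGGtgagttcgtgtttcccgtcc
Pdia6, chr12:17266471-17266529, + strand: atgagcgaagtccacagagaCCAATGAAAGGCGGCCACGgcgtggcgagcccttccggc
Dnajc3, chr14:118937807-118937865, + strand: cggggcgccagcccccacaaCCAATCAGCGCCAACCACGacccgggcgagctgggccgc
Creld2, chr15:88819500-88819558, + strand: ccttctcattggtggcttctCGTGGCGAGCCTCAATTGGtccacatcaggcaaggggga
Canx, chr11:50325780-50325838, − strand: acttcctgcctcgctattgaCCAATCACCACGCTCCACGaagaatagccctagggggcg

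The matches in Hspa5, Pdia6, Dnajc3 and Canx read in the direction of the gene, those in Creld2 and the second of Hsp90b1 in the other. Pdia4, Pdia3, Manf and Fkbp11, all further from vehicle than Hsp90b1, had no match to the long motif in this window or no promoter in the table. A match is a description of the sequence and was not measured as a binding site.

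Regulators of the unfolded protein response, which adjusts ER capacity to load, had 2 of 11 measured genes at least 2-fold higher and 0 lower (median 0.44). Atf4 was 2.35-fold higher and Xbp1 2.05-fold higher, with signals of 1474 and 3026 for the latter. Creb3l1, a membrane-bound factor linked to collagen secretion, had a log2 ratio of 0.99. Atf6 was at 0.17, Eif2ak3, which encodes the sensor kinase PERK, at 0.49, and the stress-linked genes Ddit3 and Ppp1r15a at 0.37 and 0.04. In ER-associated degradation, Selenos was 2.93-fold higher and Derl2 at least 2.30-fold higher, whereas the lectin gene Os9 was 2.12-fold lower.

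The glycosylation genes furthest from vehicle included enzymes of sugar donors and of chain transfer. Gmppb, which makes the mannose donor GDP-mannose, was below the floor in vehicle and 639.9 at 12 h, at least 4.48-fold higher. Mgat2, a Golgi transferase of complex chains, was 3.63-fold higher, and 2 members of the oligosaccharyltransferase, Ostc and Ddost, were 3.38-fold higher and 3.21-fold higher. The catalytic subunit genes Stt3a and Stt3b lay at log2 ratios of 0.63 and 0.33.

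In vesicle transport, the receptor that returns escaped ER proteins had members that differed from each other. Kdelr3 was 557 in vehicle and 2375 at 12 h, 4.27-fold higher, while Kdelr1 and Kdelr2 had log2 ratios of -0.16 and -0.19. The tether gene Uso1 was 2.84-fold higher, the COPII coat genes Sec13 and Sec23a, which bud vesicles from the ER, were 2.70-fold higher and 2.52-fold higher, and Gorasp2, of the Golgi stacks, was 2.65-fold higher. The COPI coat genes Copa, Copb1, Copb2 and Arcn1 lay between 0.59 and 0.93. At the last step, Rab3a and Cpe, both known from regulated secretory granules, were 3.42-fold lower and 2.99-fold lower. The fusion genes Stx4a, Snap23 and Vamp8 lay between log2 ratios of -0.16 and -0.02. Stx3, another fusion gene, was below the floor at 12 h, at -0.92 or lower.

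**Figure D3:**
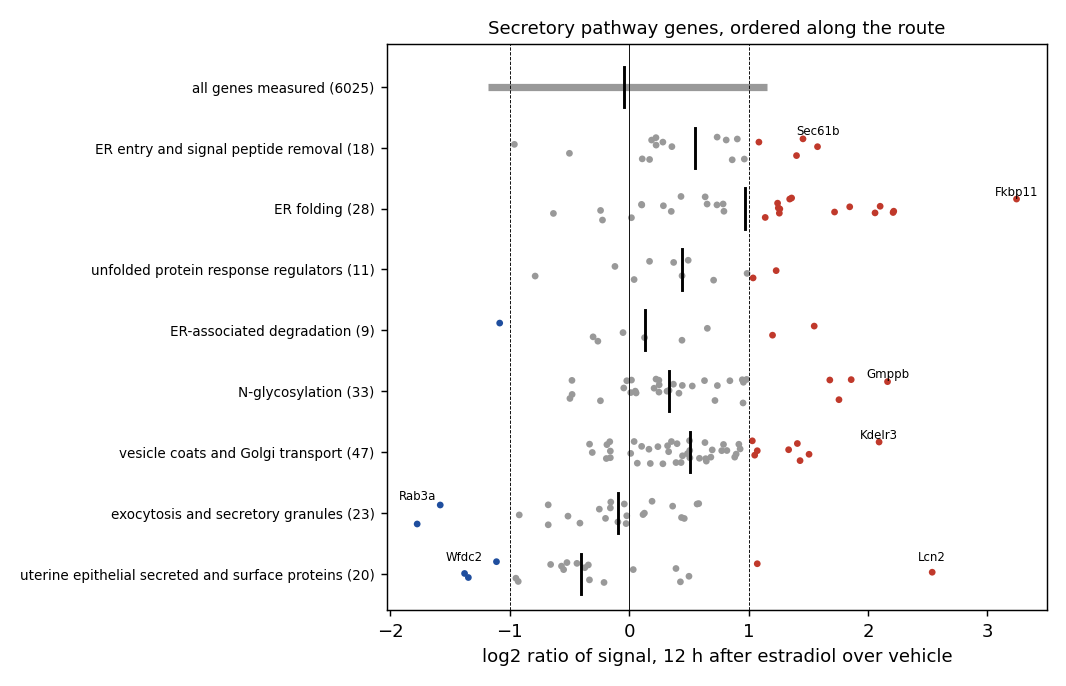
Log2 ratio of signal, 12 h after estradiol over vehicle, of each measured gene in 8 lists ordered along the secretory route (number measured in parentheses), with genes 2-fold higher in red and 2-fold lower in blue, list medians as black bars and, for all 6025 genes, a grey bar from the 5th to the 95th percentile. The ER folding genes have the highest median, 0.97, and exocytosis genes and uterine secreted proteins have medians below 0.

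The products that the uterine epithelium is known to secrete or display did not follow the ER genes. Of 20 measured, 2 were higher and 3 lower, with a median of -0.40. Lactotransferrin (Ltf), an iron-binding protein and a classic uterine estrogen target, was 2689 in vehicle and 1412.5 at 12 h, a log2 ratio of -0.93. Wfdc2, a whey-acidic protein, was 2.60-fold lower and the cathepsin gene Ctsl 2.54-fold lower. Lcn2, a siderophore-binding lipocalin, was 220.3 in vehicle and 1279 at 12 h, 5.81-fold higher, but its second probe set gave 0.13 on the log2 scale. Ceacam1 was 2.10-fold higher, with 1.13 on the log2 scale by its other probe set. The mucin gene Muc1 and the surface gene Cd24a lay at 0.43 and 0.39.

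Genes that supply protein synthesis were higher in the nucleolus and in amino acid charging, while the ribosomal proteins themselves were not. Of 48 ribosome biogenesis genes 17 were higher and 0 lower (median 0.75). Nop58 and Nop56, of the particles that guide rRNA methylation, were 4.25-fold higher and 2.72-fold higher, the helicase gene Ddx21 was 3.78-fold higher, and Gnl3, the nucleolar GTPase nucleostemin, 3.96-fold higher. Subunits of RNA polymerase I differed less, with Polr1a, Polr1b and Polr1c at log2 ratios of 0.43, 0.27 and -0.21. The 21 measured cytosolic ribosomal protein genes had a median of -0.41 with 1 2-fold lower, but under quantile normalisation this median was 0.02. Many of these probe sets are among the brightest on the arrays, with Rpl41 at 48062 in vehicle and 32678 at 12 h.

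In amino acid supply, 16 of 41 genes were higher and 0 lower (median 0.91). Mthfd2, a mitochondrial enzyme of one-carbon metabolism, was 295 in vehicle and 2416 at 12 h. The synthetase genes Cars and Eprs were at least 4.39-fold higher and 3.50-fold higher, Psat1, of serine synthesis, was 3.56-fold higher, and Aldh18a1, of proline synthesis, at least 2.94-fold higher. Not each synthetase was higher: Qars and Kars had log2 ratios of -0.46 and -0.21.

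Genes of protein quality control in the cytosol also lay above vehicle. The chaperonin that folds actin and tubulin had Cct3 at 3.15-fold higher, Cct8 at 3.03-fold higher and Cct6a at 2.98-fold higher, and within its ring Cct2, Cct4 and Cct5 had log2 ratios of 0.71, 0.61 and 0.66. Stip1, which links HSP70 to HSP90, was 3.85-fold higher and Hsp90aa1 2.41-fold higher. In that list 9 of 41 genes were higher and 0 lower. Of the proteasome, 9 of 35 genes were higher, 0 lower and 34 above a log2 ratio of 0, with Psmb5, a catalytic subunit, at 2.87-fold higher.

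Of the lipid genes, those of cholesterol synthesis lay in part above vehicle, and the fatty acid synthesis list lay near it. In cholesterol synthesis 5 of 16 genes were higher and 0 lower: Idi1 (167 in vehicle and 938 at 12 h) and Fdps (3.98-fold higher) make isoprenoid units, Sqle (3.78-fold higher) and Msmo1 (at least 2.51-fold higher) act later, on squalene and on the sterol, and Hmgcs1 (2.29-fold higher) acts at the entry. In the fatty acid synthesis list 0 of 20 were higher and 2 lower, near the 7.55% of all measured genes. Its median log2 ratio of -0.05 was also near the -0.04 of all genes. The 2 lower genes on that list were Lpin1 (3.56-fold lower) and Elovl6 (2.07-fold lower). Fasn had a log2 ratio of -0.33 and Scd1 of -0.82, and several genes of that list are also adipocyte genes, whose summed signal was lower at 12 h as given above.

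Genes of sugar metabolism differed in opposite directions. The glucose transporter gene Slc2a1 was 153 in vehicle and 565 at 12 h, 3.69-fold higher, and Hk2 was 2.14-fold higher, while Hk1, the other main hexokinase, was 15209 in vehicle and 5856 at 12 h, 2.60-fold lower. Of the lactate dehydrogenase subunits, Ldhb was 2.55-fold lower and Ldha had a log2 ratio of 0.97. Pdk4, a kinase that restrains pyruvate oxidation, was at least 3.00-fold lower. In the respiratory chain 4 of 46 genes were higher and 0 lower, and cytochrome c (Cycs) was at least 2.97-fold higher.

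Cell cycle genes were above vehicle in both S phase and mitosis. Of 46 DNA replication genes 10 were higher and 0 lower (median 0.58), and of 45 mitosis genes 14 were higher and 0 lower (median 0.73). The medians of these lists against the same vehicle array were 0.37 and 0.03 at 6 h and 0.39 and 1.12 at 24 h. Rrm2, the regulated subunit of ribonucleotide reductase, was below the floor in vehicle and 664 at 12 h, at least 4.65-fold higher. Of the replicative helicase, Mcm5 was 2.97-fold higher and Mcm3 2.54-fold higher, while Mcm7 had a log2 ratio of -0.24. Uhrf1, which guides maintenance methylation, was 3.85-fold higher, and the licensing gene Cdc6 2.65-fold higher. In mitosis, Cks1b, a small subunit of cyclin-dependent kinases, was 398 in vehicle and 1494 at 12 h, 3.76-fold higher, Birc5 was at least 2.88-fold higher, its partner Aurkb at least 2.42-fold higher and Top2a 2.42-fold higher. Mki67, a proliferation marker, was 2.47-fold higher, while a dimmer probe set of the gene had a log2 ratio of 0.47. The cell cycle genes Ccnb2 and Foxm1 lay at 0.09 and -0.13, and Pttg1 at -0.82. Ube2c was below the floor at 12 h, at -0.16 or lower.

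Mitotic genes are known to share the cell cycle homology region, read here as the letters TTTGAA on either strand of the same promoter windows. It was present in 26 of 42 mitosis genes on the array with a promoter, in 20.2% of all genes in the table and in 14.6% of the measured genes. Of 13 that were 2-fold higher, 10 held it. Stretches around a match before the start site are shown for 4 of these 10, with each match in capitals.

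Cks1b, chr3:89418343-89418388, − strand: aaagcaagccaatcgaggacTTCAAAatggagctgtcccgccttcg
Mki67, chr7:135716470-135716515, − strand: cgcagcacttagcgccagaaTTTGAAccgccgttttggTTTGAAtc
Top2a, chr11:99024343-99024388, − strand: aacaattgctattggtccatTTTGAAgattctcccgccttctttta
Smc2, chr4:52439056-52439101, + strand: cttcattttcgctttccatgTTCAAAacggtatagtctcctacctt

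Mki67 has a pair of matches within this stretch. Top2a, Cks1b and Smc2 each have a further match nearer the start that is not printed, that of Smc2 after it. Genes with the motif were not all higher: Ccnb2, at a log2 ratio of 0.09, holds it too. So does Ube2c, which was below the floor at 12 h.

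FOXO-linked and quiescence genes lay mostly below vehicle, while G1 cyclins and CDK inhibitors were divided. In a list of FOXO-linked and quiescence genes, 16 of 29 were at least 2-fold lower and 2 higher, with a median of -1.09. The cyclin G2 gene Ccng2 was 1319 in vehicle and 193 at 12 h, and Cdkn1c, the inhibitor p57, was 2134 in vehicle and 373 at 12 h. Ypel3, Sesn1 and Mxi1, linked to growth arrest and to opposing MYC, were 5.12-fold lower, 4.44-fold lower and 3.79-fold lower, and Foxo3 itself was 2.41-fold lower. Bcl2l11, which encodes the death protein BIM, was 5.01-fold lower by the probe set used, while a dimmer one had a log2 ratio of -0.38. Txnip also had probe sets that differ, at -2.80 and 0.29. The exceptions were Gadd45g (5.88-fold higher, but at a log2 ratio of -2.00 with the 1 h array in place of vehicle) and Klf4 (2.52-fold higher). Cdkn1a, the inhibitor p21, was 3.51-fold higher, with -0.33 on the log2 scale by its second probe set, and cyclin D1 (Ccnd1) was at 0.30.

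Stromal fibroblast genes lay below vehicle in part. Uterine fibroblasts are known for positional HOX genes, for secreted binding proteins of growth factors and for the matrix they lay down. Of 39 measured markers 11 were at least 2-fold lower and 2 higher, with a median of -0.35. Igfbp3, a carrier of insulin-like growth factors, was 6996 in vehicle and 356 at 12 h, 19.7-fold lower, and its other probe set gave -2.67 on the log2 scale. Sfrp2, an extracellular Wnt antagonist, went from 5324 in vehicle to 601, and Inmt, a methyltransferase, from 2065 in vehicle to 175. The brightest probe set of the chemokine gene Cxcl12 was 3.55-fold lower, while its others gave log2 ratios of -0.45 and -0.34, and the receptor gene Pdgfra was 3.96-fold lower with -0.12 by its other. Fbln1 was lower by each of its 3 probe sets, at -1.36, -1.24 and -1.69.

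The transcription factors that define the uterine stroma differed little by comparison. Hoxa11 had a log2 ratio of -0.03, Hoxa10 -0.19, Twist2 -0.09, Tcf21 0.03 and Nr2f2 -0.35. Wt1, Hoxa9 and Meis2 were the exceptions, at 2.33-fold lower, 2.37-fold lower and 2.34-fold lower. Higher members were Aldh1a2, which makes retinoic acid (300.2 in vehicle and 965 at 12 h), and Ccn4 (2.31-fold higher), and Fbln2 lay at 0.89. The mesenchymal filament gene Vim was below the floor on both arrays. The summed signal of the adipocyte markers, given above, was lower at 12 h as well.

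Genes of growth factor handling, read here in the whole organ and not in the stroma alone, showed a similar mixture. In the IGF axis, 4 of 12 measured genes were lower and 1 higher. Besides Igfbp3, these were the receptor gene Igf1r (2912 in vehicle and 1012 at 12 h), Igfbp6 (2.79-fold lower) and Irs2 (at least 2.20-fold lower), while Igfbp2 was 2.65-fold higher. Igf1, the growth factor known to carry part of the estrogen response of the epithelium, had a log2 ratio of 0.27 by its brightest probe set and 3.20 by its other, so these probe sets differ. Among Wnt ligands and antagonists 5 of 27 were lower and 0 higher. After Sfrp2 these were Ndp, the norrin ligand (907 in vehicle and 159.6 at 12 h), the inhibitors Apcdd1 (4.14-fold lower) and Dkk3 (2.59-fold lower), and the receptor gene Fzd6 (2.10-fold lower). The ligand genes Wnt4 and Wnt5a lay at -0.91 and 0.76.

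The matrix genes split by class. Fibrillar and fibril-associated collagens had 4 of 15 genes higher and 1 lower (median 0.54), whereas matrix proteoglycans, glycoproteins and elastic fibre genes had 1 of 33 higher and 10 lower (median -0.56). All 3 chains of collagen VI, a beaded filament around cells, were above vehicle: Col6a3 went from 4721 in vehicle to 18789, Col6a2 from 4656 in vehicle to 15094 and Col6a1 from 9203 in vehicle to 15265. Col5a1, which sets fibril diameter, was 2.18-fold higher and Col15a1 2.10-fold higher. The main fibril collagens Col1a1, Col1a2 and Col3a1 had log2 ratios of 0.93, 0.53 and 0.54, but the second probe set of Col1a1 gave -0.07. Genes that process collagen were higher in part, with the collagen chaperone gene Serpinh1 at 2.40-fold higher and the prolyl hydroxylase gene P4ha1 at 2.29-fold higher, while the cross-linking enzyme gene Lox was at -0.50.

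Among the proteins that decorate or space the fibrils, the lower ones included abundant members. Decorin (Dcn), a small proteoglycan that binds collagen fibrils, was 23991 in vehicle and 5963 at 12 h, 4.02-fold lower. Tenascin X (Tnxb), a linker between fibrils, was 1824 in vehicle and 217 at 12 h, and its other probe set gave a log2 ratio of -2.88. Itih5, Tgfbi and Sparcl1 were 6.95-fold lower, 5.64-fold lower and 4.91-fold lower. Sparcl1 and its relative Sparc lay on opposite sides, since Sparc was 2.11-fold higher. Other small proteoglycan genes differed by less, with Bgn at -0.76, Lum at -0.52 and Ogn at 0.29. Versican (Vcan), a large proteoglycan of swollen matrix, was 295 in vehicle and 693 at 12 h, 2.35-fold higher, although it read below the floor at 6 h, and elastin (Eln) lay at 0.45.

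In the basement membrane few genes reached 2-fold. The collagen IV genes Col4a1 and Col4a2 had log2 ratios of 0.82 and 0.69, and the measured laminin genes lay between Lama2, at -1.38, and Lamb3, at -0.09. Over that list 1 of 17 genes was higher and 1 lower (median -0.46). Of the proteases and inhibitors, Timp1, an inhibitor of matrix metalloproteinases, was 347 in vehicle and 1806 at 12 h, 5.21-fold higher, while its relatives Timp2 and Timp3 lay at -0.60 and -0.42. Mmp11, a stromal metalloproteinase, was 1082 in vehicle and 265 at 12 h, 4.08-fold lower, and Plat, the tissue plasminogen activator gene, was 2.20-fold lower.

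**Figure D4:**
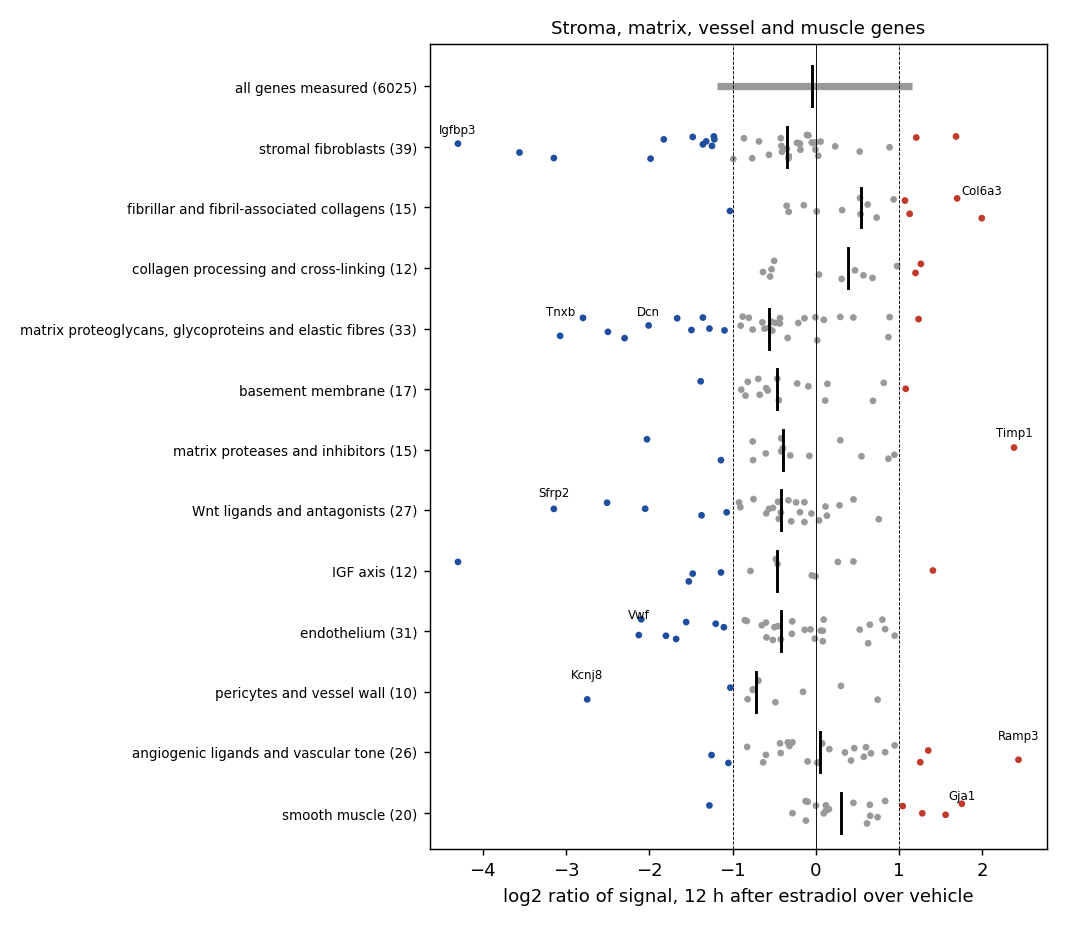
Log2 ratio of signal, 12 h after estradiol over vehicle, of each measured gene in 12 lists of stroma, matrix, growth factor, vessel and muscle genes (number measured in parentheses), with genes 2-fold higher in red, 2-fold lower in blue, list medians as black bars and, for all 6025 genes, a grey bar from the 5th to the 95th percentile. Collagens have a median of 0.54 and lie to the right of matrix proteoglycans and glycoproteins, at -0.56, and pericyte genes have the lowest median of the 12, -0.72.

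Vessel genes differed among themselves. Endothelial cells line the vessels and pericytes wrap the small ones. Of 31 measured endothelial genes 7 were lower and 0 higher, with a median of -0.42. Vwf, the clotting factor carrier of larger vessels, was 623 in vehicle and below the floor at 12 h. The tight junction gene Cldn5 was 1459 in vehicle and 341 at 12 h, Sox17, a factor of arterial endothelium, was 3.48-fold lower with -1.80 on the log2 scale by its second probe set, and the water channel gene Aqp1 was 3.20-fold lower. The arterial ligand gene Efnb2 and the angiopoietin receptor gene Tek were 2.30-fold lower and at least 2.15-fold lower. Other markers shared by most endothelial cells ranged from Cdh5, the junctional cadherin, at a log2 ratio of -0.83 and the receptor gene Tie1 at -0.60 to Pecam1 at -0.01, Eng at 0.08 and Emcn at 0.09. On the higher side lay the VEGF receptor gene Kdr (0.80) and Ramp2 (0.83), neither at 2-fold. The nitric oxide synthase gene Nos3 was below the floor in vehicle and at least 0.95 higher on the log2 scale.

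In the vessel wall 2 of 10 measured genes were lower and 0 higher (median -0.72). These were the subunits of 1 potassium channel of pericytes and vascular muscle: the pore gene Kcnj8, 958 in vehicle and below the floor at 12 h, and its sulfonylurea receptor gene Abcc9, 455 in vehicle and 223 at 12 h. The growth factor receptor gene Pdgfrb had a log2 ratio of -0.69, Mcam -0.49 and Rgs5 -0.15. Kcnj8 read 266 units at 6 h and 302 at 24 h.

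Among ligands of vessel growth and tone, members of the adrenomedullin system differed from each other. Adm, a vasodilator peptide, was 186 in vehicle and 473 at 12 h, 2.55-fold higher, although it was lower at 12 h than on the 1 h array, where it read 1067. The proteins that set the specificity of its receptor differed: Ramp3 was 393 in vehicle and 2124 at 12 h, 5.40-fold higher, Ramp2 lay at a log2 ratio of 0.83, and Ramp1 was 2.38-fold lower. Vegfa, the main endothelial growth factor, was 229 in vehicle and 546.5 at 12 h, 2.38-fold higher, while Vegfb and Vegfd lay at -0.63 and -0.60. The cyclooxygenase gene Ptgs2, the inducible nitric oxide synthase gene Nos2 and Vegfc were below the floor on both arrays.

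Genes of antigen presentation and of the interferon response had medians further below vehicle than markers of immune cells. MHC class II molecules present peptides to CD4+ T cells and are made by macrophages, dendritic cells and B cells, and interferons set the level of many GTPases and antiviral proteins. Of 11 MHC class II genes 6 were lower and 0 higher, with 11 below a log2 ratio of 0 and a median of -1.02. H2-Eb1 went from 2914 in vehicle to 1002.5, H2-Aa from 3559.8 in vehicle to 1317 and the invariant chain Cd74 from 7871 in vehicle to 3608. H2-DMb1 and Ifi30, which load and prepare peptides, were 2.33-fold lower and 2.21-fold lower, while Ciita, the master regulator of the class, lay at -0.18 near the floor.

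In the class I pathway, present in most cells, 3 of 14 genes were lower and 0 higher (median -0.60). The immunoproteasome gene Psmb9 and the peptide transporter gene Tap2 were 2.33-fold lower and 2.26-fold lower. Psmb8 and Psmb10, the other 2 immunoproteasome subunits, lay at -0.86 and -0.45, whereas Psmb5, the standard subunit whose place Psmb8 takes, was 2.87-fold higher. H2-Q4 was 3.03-fold lower, but class I heavy chain genes are near-identical and their probe sets may read each other's RNA. B2m, the light chain, had a log2 ratio of -0.56.

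Of 37 interferon-induced genes 14 were lower and 1 higher, with a median of -0.83. The guanylate-binding GTPase gene Gbp7 was 1114 in vehicle and 204 at 12 h, 5.45-fold lower, Gbp3 was 3.44-fold lower and Gbp2 3.06-fold lower. Iigp1, of the immunity-related GTPases, was 4.25-fold lower, with -0.65 on the log2 scale by its other probe set. The factor gene Irf1 was 1151 in vehicle and 412 at 12 h, and Irf9, part of the type I interferon signal, was 2.15-fold lower. Ifit3 and Ifit1, antiviral proteins, ended below the floor and were at least 2.99-fold lower and at least 2.21-fold lower. A pair of receptor chains lay on opposite sides, with Ifnar2 2.62-fold lower and Ifngr2 2.07-fold higher. At the other times, against the same vehicle array, the list's median was -0.56 at 6 h and -0.36 at 24 h, and Gbp7 read 253 units at 6 h and 825 at 24 h.

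Interferon-stimulated response elements hold repeats of the letters TTTC, searched here as TTTC and TTTC with 2 bases between them on both strands. A match was in 18 of 39 interferon-induced genes on the array with a promoter, in 3.99% of all genes in the table and in 3.60% of the measured genes. Of 12 interferon-induced genes at 2-fold in either direction with a promoter, 7 held it, each of them lower at 12 h. Those with the match before the start site are shown, except Gbp3.

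Gbp7, chr3:142530263-142530312, + strand: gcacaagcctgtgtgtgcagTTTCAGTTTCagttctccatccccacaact
Gbp2, chr3:142620584-142620633, + strand: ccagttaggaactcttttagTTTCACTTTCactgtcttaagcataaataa
Ifit1, chr19:34640765-34640814, + strand: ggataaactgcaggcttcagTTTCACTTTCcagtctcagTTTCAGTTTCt
Ifit3, chr19:34583387-34583436, + strand: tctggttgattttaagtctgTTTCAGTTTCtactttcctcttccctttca
Igtp, chr11:58199502-58199551, + strand: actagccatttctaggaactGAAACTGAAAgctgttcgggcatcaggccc
Irgm2, chr11:58214893-58214942, + strand: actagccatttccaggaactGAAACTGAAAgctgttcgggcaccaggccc

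Igtp (at least 2.12-fold lower) and Irgm2 (2.70-fold lower) lie close together on chromosome 11 and carry the motif on the other strand, written here as GAAACTGAAA, within nearly the same surroundings. Ifit1 shows 2 matches in its stretch.

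Markers of immune cells themselves were nearer to vehicle. Of 24 measured macrophage and dendritic cell markers 3 were lower and 0 higher (median -0.50). The summed signal of all 37 on the array was 21939 units in vehicle and 16197 at 12 h. The 3 lower ones were Cd83, a dendritic cell activation marker (at least 3.24-fold lower, with -1.50 on the log2 scale by its other probe set), Itgax (2.07-fold lower) and Mpeg1 (2.07-fold lower). The macrophage receptor gene Csf1r lay at -0.98, with 0.83 by its other probe set, and Cd68 at 0.24. Adgre1 was below the floor at 12 h, at -0.26 or lower. Of 44 lymphocyte genes on the array 24 were below the floor on both arrays, among them Cd3e and Cd8a, and the measured ones had a median of -0.01. The single one at 2-fold was Ly6d (1160.4 in vehicle and 3138 at 12 h), which is also known from squamous epithelium. Of 13 measured granulocyte and mast cell genes 2 were lower and 1 higher (median -0.19). The lower ones were the mast cell genes Cma1 (at least 2.28-fold lower) and Hdc (2.20-fold lower). The higher one was Lcn2, described above.

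Complement genes and their regulators included some of the lowest ratios among the immune genes listed. Of 13 measured 4 were lower and 0 higher (median -0.59). Serping1, the C1 inhibitor, was 5135 in vehicle and 1043 at 12 h, 4.92-fold lower, and Cd59a, which blocks the membrane attack complex, was 1227 in vehicle and 286 at 12 h, 4.28-fold lower. The components C2 and C1ra were 2.62-fold lower and 2.23-fold lower, so both inhibitors and components were lower. The C1q genes of macrophages, C1qa, C1qb and C1qc, lay at -0.67, -0.59 and -0.62.

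Chemokines and cytokine receptors were mixed, with 2 of 25 higher and 4 lower. Ccl11, the eosinophil attractant eotaxin, was 191 in vehicle and 434 at 12 h, 2.28-fold higher, and the decoy receptor gene Il1r2 was at least 2.45-fold higher. The monocyte attractants Ccl2 and Ccl7 went from below the floor to 193 and 226, under 2-fold against the floor. Cxcl14 was 1569 in vehicle and 418 at 12 h, 3.75-fold lower, and the receptor genes Il15ra and Lifr, for interleukin 15 and for leukemia inhibitory factor, were 2.32-fold lower and 2.19-fold lower.

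**Figure D5:**
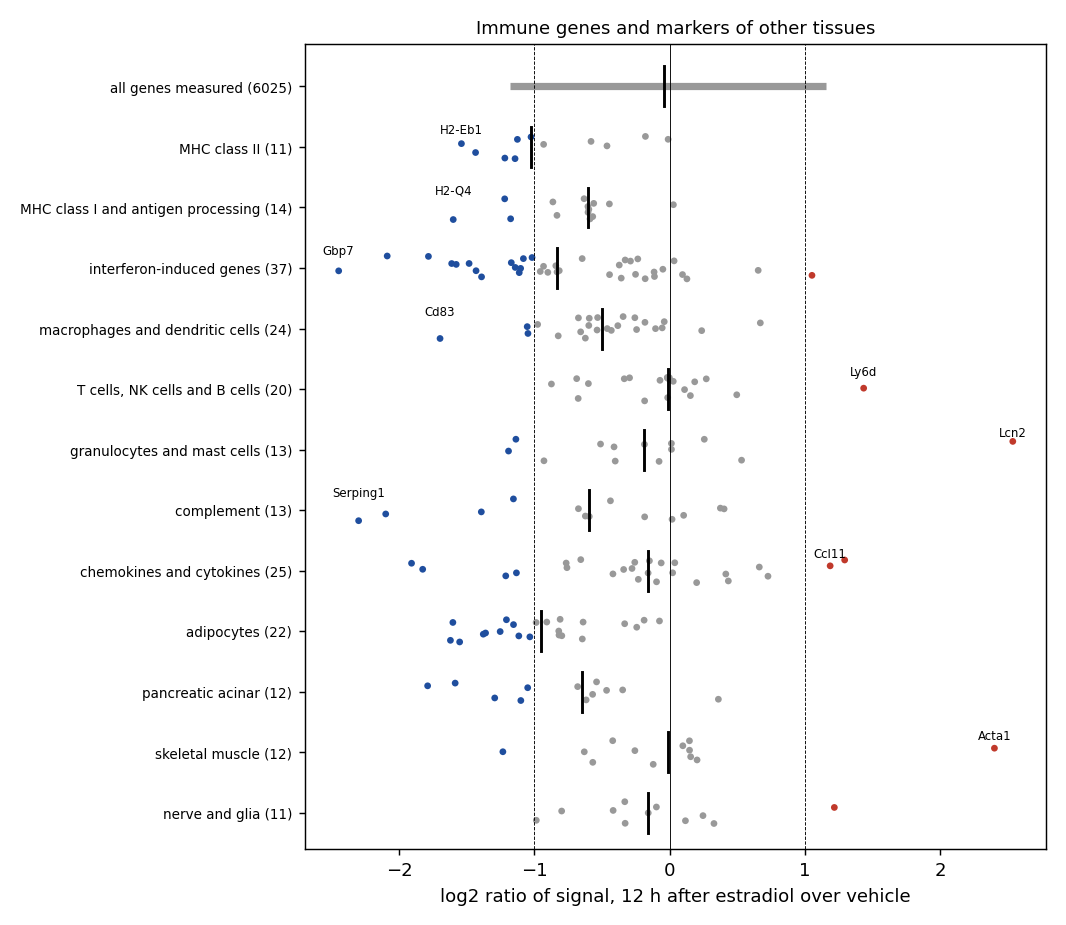
Log2 ratio of signal, 12 h after estradiol over vehicle, of each measured gene in 8 lists of immune genes and 4 lists of markers of other tissues (number measured in parentheses), with genes 2-fold higher in red, 2-fold lower in blue, list medians as black bars and, for all 6025 genes, a grey bar from the 5th to the 95th percentile. MHC class II and adipocyte genes have the lowest medians, -1.02 and -0.95, and lymphocyte genes lie around 0, at -0.01.

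Of 28 measured genes listed as known estrogen targets 11 were higher and 2 lower (median 0.70). The lower ones were Txnip, whose probe sets differ as given above, and Bcl2, at log2 ratios of -2.80 and -1.29. Inhbb, the activin beta B subunit, was below the floor in vehicle and 1945 at 12 h, at least 13.6-fold higher. The progesterone receptor gene Pgr was 159.8 in vehicle and 602 at 12 h, 3.77-fold higher, and Odc1, of polyamine synthesis, was 2.60-fold higher. The estrogen receptor gene Esr1 had a log2 ratio of -0.21, with -0.38, 0.02 and -0.27 by its other probe sets, and Esr2 was below the floor. Hsd11b2, which inactivates glucocorticoids, was 443 in vehicle and 2059.5 at 12 h, 4.65-fold higher, whereas the thyroid receptor gene Thra and Hsd17b11 were 2.53-fold lower and 2.31-fold lower. The palindromic estrogen response element, read as GGTCA and TGACC with 3 bases between them on either strand, was in none of the promoter windows of 27 target genes, in 0.074% of genes in the table and in 0% of the measured genes. That says only that these letters are not in these windows.

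Smooth muscle genes were near vehicle or higher. Of 20 measured 4 were higher and 1 lower (median 0.30). The gap junction gene Gja1, which couples myometrial cells before labour, was 1295 in vehicle and 4366 at 12 h, 3.37-fold higher, with 1.67 on the log2 scale by its other probe set. The smooth muscle gamma actin gene Actg2 was 2.95-fold higher and the calponin genes Cnn2 and Cnn1 were 2.43-fold higher and 2.06-fold higher. The myosin and kinase genes Myh11 and Mylk lay at -0.28 and 0.00, and Smtn was 2.42-fold lower. Acta1, the skeletal muscle actin, was 485 in vehicle and 2566 at 12 h, while the 12 measured skeletal muscle markers, this one included, had a median of -0.01 and the defining genes Ckm and Myh1 were below the floor on both arrays.

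Some clock genes were lower. Of 16 measured 5 were lower and 0 higher. The repressor genes Nr1d2 and Nr1d1 were 1489 in vehicle and 245 at 12 h for the former and 2.56-fold lower for the latter. The PAR leucine zipper genes Dbp and Tef were at least 4.38-fold lower and 2.94-fold lower, and the kinase gene Csnk1e was 2.17-fold lower. The core activators Arntl and Clock lay at 0.29 and 0.27. The hour of the day at which each pool was collected was not stated in the labels, so the clock and the treatment cannot be told apart in these genes.

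Among the 20 highest and the 20 lowest ratios were also genes on none of the lists. On the higher side were Srm, the spermidine synthase gene (368 in vehicle and 2134.5 at 12 h), which follows Odc1 in polyamine synthesis, Gjb2, which encodes the gap junction protein connexin 26 (476.5 in vehicle and 2532.5 at 12 h), Cdr2 (5.37-fold higher) and Ak1, which encodes an adenylate kinase (at least 6.36-fold higher). On the lower side Sun2, of the inner nuclear membrane, was 3328 in vehicle and 501 at 12 h, and the cytochrome P450 gene Cyp2f2 was 2348 in vehicle and 419 at 12 h. Lepr, the leptin receptor gene, and Txndc16 and 6330403K07Rik ended below the floor, at least 5.73-fold lower, at least 6.79-fold lower and at least 5.96-fold lower. The carboxylesterase gene Ces1d was at least 5.49-fold lower, and Fbxw4, which encodes an F-box protein, was 5.56-fold lower with -0.76 on the log2 scale by its other probe set.

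Of commonly used reference genes, 1 of 11 was 2-fold higher and 1 lower. Pgk1, a glycolytic enzyme, was 2.39-fold higher, and Actb, the cytoplasmic beta actin gene, was 2080.1 in vehicle and 1025 at 12 h, 2.03-fold lower, although against the 1 h array in place of vehicle Actb was on the other side, at a log2 ratio of 0.67. Hprt, Tbp and Ywhaz lay at 0.85, -0.64 and -0.30, so differences of that size occurred among genes often taken as constant.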

How the data were processed

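The study measured RNA from pooled whole uteri on Affymetrix U74Av2 arrays, with 20 µg of total RNA labelled per array, and 2 of its 6 arrays are compared here. Per the submitters' processing notes the values are the output of MAS5, with no version given in the sources used here. The authors deposited a linear signal intensity for each probe set on each array, and no detection calls. A probe set not bound specifically, or scaling to a common mean, can shift a value, and the depth of an array has no count: the number of arrays, 1 per group, limits the precision.

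Of 12488 probe sets, 66 controls were left out. The annotation named 1 gene for 10833 probe sets, several for 396 and none for 1193, and only the first kind was used. Each array was rescaled to the same mean after removing 2% at each end. The 40th percentile of all scaled values (142.8) served as a floor, to which lower values were set before log2 was taken. Where a gene had several probe sets, the one brightest on average (mean log2 over the 6 arrays) stands for it. A gene counts as higher or lower at 2-fold (a log2 ratio of 1). Where 1 value was under the floor the fold is a bound, and where both were under it no fold is given. No test, p-value or SD was computed.

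The 54 lists hold 1948 symbols, of which 1513 were found as written, 33 through a synonym and 402 not among the genes named here. The members and lists were chosen with earlier results of these data known, so no list is independent support. The genes named were drawn by rule from the 20 highest and 20 lowest ratios whose brighter array reached the 60th percentile (352.65), up to 6 members per direction of each list at 2-fold, all members of lists with 12 or fewer measured, the first 4 of each marker list and the reference genes. Not each gene that the rule allows is described. Other genes named were chosen after their values were seen. Of 859 genes at 2-fold, 146 had a second measured probe set, and this was at 1.5-fold or more on the same side for 87 and on the other side for 3. At the 2-fold minimum used for the genes, the second probe set was on the same side for 53.

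Promoter windows, 250 bases before to 50 after the start, came from RefSeq (GRCm38.p6) and matched 4837 of the 6025 measured genes by symbol. A planned look at the ends of ER proteins was not run, since no protein sequences were used here. The procedure was tested on simulated data: copies of the vehicle array with little added noise, and changes put into bright genes only. All probe sets of a gene were changed alike. Such data cannot show how genes near the floor or probe sets that differ are treated. Python 3.11.15, numpy 2.4.6, pandas 2.3.3 and matplotlib 3.10.9 were used. The alternatives tried were the floor, the scaling, the choice of probe set, the reference array and a pseudocount.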

Additional observations from a re-analysis of the deposited data

Results flagged for a closer look

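Vcan, the gene of the large matrix proteoglycan versican, was at a log2 ratio of 1.23 at 12 h and of -1.05 at 6 h against the same vehicle array, with 295 units in vehicle, below the floor at 6 h and 693 at 12 h. Among genes bright enough to be ranked, it was the one at 2-fold or more in opposite directions at 12 h and at 6 or 24 h. With 1 array per time the difference between the times was not tested.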

How the results depend on the processing

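The counts at 2-fold, 404 higher and 455 lower, depended mainly on how low signals were treated. With the floor at the 20th percentile 685 genes were lower, with the floor at the 60th percentile 273, and with a pseudocount equal to the floor in its place 250 were higher and 286 lower. Scaling moved the balance of directions, to 455 higher and 395 lower with the same median on every array and 413 and 429 after quantile normalisation. The naming rule allows or the text names 283 genes at 2-fold. Of these, 271 stayed at 2-fold under the common median, 275 under quantile normalisation and 271 with the median of all probe sets. Fewer stayed when low signals were treated differently: 208 of 270 under the higher floor and 213 of 283 under the pseudocount. In none of these settings did a named gene lie in the other direction. The 1 h reference kept 224 of 281, and 53 fell under 2-fold. The other 4 lay in the other direction: Actb at a log2 ratio of 0.67, Adm at -1.17, Gadd45g at -2.00 and Plk2 at -1.34. The latter 3 were brighter at 1 h than in vehicle. Of all 859 genes at 2-fold, 63% were kept under the higher floor, 60% under the pseudocount and 69.3% under the 1 h reference. Of 37 list medians of 0.3 or more in size, each kept its sign under each alternative, except the cytosolic ribosomal proteins under quantile normalisation, at 0.02. Leaving out the array labelled 3 h, chosen after seeing the data, gave 402 higher and 455 lower. No paired analysis was possible because each group has 1 array.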

Other observations

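Some gene families not described above also lay mostly on one side of vehicle at 12 h, a few of whose members, such as Ctsl, are on a list above. They were noticed in the values and then counted over the whole family by its symbols, so their counts are a description with no test, to be read against 6.71% of measured genes higher and 7.55% lower. Of 57 measured mitochondrial ribosomal protein genes 11 were at least 2-fold higher and 0 lower (median log2 ratio 0.53), with Mrpl12 at 381 in vehicle and 909 at 12 h. Genes that import proteins into mitochondria (Timm and Tomm) had 6 of 16 higher and 0 lower, with Tomm40, the outer membrane pore, at 2.91-fold higher. Of 21 importins, exportins and Ran factors 9 were higher and 0 lower (median 0.76), among them the exportin gene Xpo1 (2.42-fold higher) and Ran itself (2.50-fold higher). Of 27 splicing factor genes 6 were higher and 0 lower, and of 16 heterogeneous nuclear ribonucleoprotein genes 2 were higher and 0 lower (median 0.41).

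On the lower side were families of degradation and detoxification. Of 19 measured autophagy genes, which enclose and digest parts of the cell, 10 were lower and 0 higher (median -1.04). The autophagosome gene Map1lc3b was 3387 in vehicle and 916 at 12 h and its relative Gabarapl1 3503 in vehicle and 1187.5 at 12 h, while Sqstm1, a receptor for cargo, was 2.55-fold lower and the starting kinase gene Ulk1 2.20-fold lower. Of 30 lysosomal hydrolase and cathepsin genes 12 were lower and 0 higher (median -0.83), with Psap, the precursor of saposins, at 6563 in vehicle and 2564 at 12 h and Ctsf at 1259.5 in vehicle and below the floor at 12 h. Of 13 glutathione S-transferase genes 5 were lower and 0 higher (median -0.83), with Gstm1 at 11691 in vehicle and 4591 at 12 h. The cytochrome P450 genes lay nearer to vehicle, with 4 of 15 measured lower, 0 higher and a median of -0.22. Against the same vehicle array the autophagy and lysosome medians were -0.67 and -0.76 at 6 h. The part of fat tissue in these families was not tested, although its markers were lower at 12 h as given above.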
